A study of Mus musculus with 4 samples.

Results

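The anti-Rtl1 miRNAs are made from an imprinted transcript that runs opposite to Rtl1, a gene on distal mouse chromosome 12 derived from a retrotransposon. They were examined in the main olfactory epithelium of wild-type mice and of mice lacking adenylyl cyclase 3. The members were taken by name from the authors' deposited table: the listed arms of miR-127, miR-136, miR-337, miR-431, miR-433 and miR-434, all 10 of which were present among 1167 rows. Small RNA was sequenced from male C57BL/6 mice 3 months of age, in 2 wild-type (WT) libraries and 2 libraries of genotype AC3-/-. AC3 is adenylyl cyclase 3, which produces the cAMP signal of smell in the cilia of olfactory neurons, and the comparison asks how the miRNAs of this tissue differ without it. The labels give the genotype with no account of the allele or of the cells in which it acts. Nothing in them ties the 2 libraries of a genotype to different animals; the p-values below therefore reflect the spread among 4 libraries, part of which may be technical.

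As background, the Dlk1-Dio3 region is imprinted: Dlk1 and Rtl1 are expressed from the paternal chromosome, and the noncoding transcripts that carry the miRNAs are expressed from the maternal one. Because the anti-Rtl1 transcript is read from the other strand of Rtl1 itself, its miRNAs are fully complementary to Rtl1 mRNA and are known in mice to guide its cleavage. A miRNA precursor is a hairpin whose 5′ and 3′ arms (5p and 3p) can each give a mature miRNA; usually one arm is kept and the other is degraded. The seed, bases 2 to 8 of the mature miRNA, is the main determinant of its pairing with targets that are only partly complementary.

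The mature sequences of all 10 members were found in RefSeq (GRCm38.p6). They are shown because each has its own seed and most are also a stretch of the Rtl1 gene read from its other strand; capitals mark the seed, and all lie on the plus strand of chromosome 12. The table writes the names with the mouse prefix mmu-, given here and left out below.
mmu-miR-127-3p: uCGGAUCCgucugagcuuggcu
mmu-miR-127-5p: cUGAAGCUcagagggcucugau
mmu-miR-434-5p: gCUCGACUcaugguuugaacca
mmu-miR-434-3p: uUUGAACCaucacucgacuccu
mmu-miR-136-5p: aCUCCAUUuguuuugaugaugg
mmu-miR-136-3p: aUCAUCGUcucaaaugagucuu
mmu-miR-431-5p: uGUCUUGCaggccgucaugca
mmu-miR-433-3p: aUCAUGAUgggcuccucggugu
mmu-miR-337-5p: cGGCGUCAugcaggaguugauu
mmu-miR-337-3p: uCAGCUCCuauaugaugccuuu
No 2 members shared a seed, and no other mature mouse miRNA in the RefSeq set carried the seed of any of the 10. The GC content ran from 36.4% in both miR-136 arms to 59.1% in miR-127-3p.

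Rtl1 lies on the minus strand of chromosome 12 from 109589193 to 109600330 (GRCm38, GENCODE M21), with its whole coding sequence in 1 exon, from 109590172 to 109595403. 8 of the 10 member arms, from 5 of the 6 precursors, lay inside that coding sequence on the opposite strand. Their complements were found in the Rtl1 transcript and in no other annotated gene apart from Mir3071, which overlaps Mir136. miR-127-3p, at 109592888 to 109592909, faces coding positions 2495 to 2516, counted from the first base of the start codon. The Rtl1 mRNA stretch that it matches base for base is shown as an example of this full complementarity, in lower case with no base marked.
Rtl1 mRNA at the miR-127-3p site: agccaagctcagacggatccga
miR-136-3p faces coding positions 17 to 38, close to the start codon, and miR-431-5p, at the far end, positions 4925 to 4945. Both arms of miR-337 lay outside the annotated gene, 3321 and 3353 bases beyond its 3′ end. The complement of neither miR-337 arm was present in the annotated Rtl1 transcript. miR-337 is thus a member by the name list and is not antisense to Rtl1 as annotated.

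**Figure D1:**
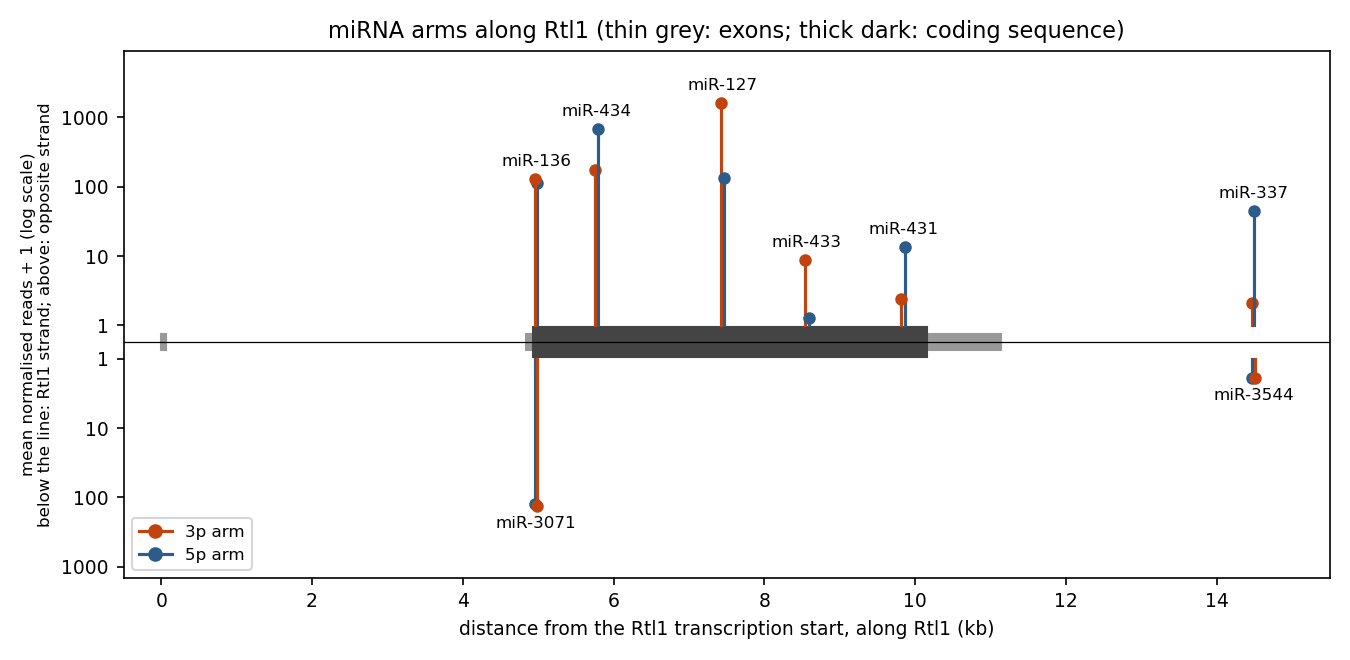
Mean normalised reads + 1 over the 4 libraries (vertical, log scale) of each miRNA arm against its distance from the Rtl1 transcription start in kb. The arms of miR-136, miR-434, miR-127, miR-433 and miR-431 stand over the coding sequence on the opposite strand, miR-337 stands beyond the 3′ end of the gene, and miR-3071 and miR-3544 are drawn downwards because they are named on the Rtl1 strand.

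The deposited means allowed the reads of the single libraries to be worked back, as described under the processing, for every member. The libraries are called a and b within each genotype, and the letters carry no replicate number. The means of all rows summed to 8739148 normalised reads in AC3-/- and 12320877 in WT. The reads behind these sums numbered 19232469 to 20031554 for the AC3-/- pair of libraries and 21163635 to 23103856 for the WT pair. The 8 markers of the olfactory sensory epithelium in the marker list were all read, with summed means of 1805089 in AC3-/- and 5418014 in WT, so the markers of the labelled tissue were present. WT library b stood apart from the others: 26.1% of 445 miRNAs tested lay 2-fold or more apart between the WT libraries and 5.84% between the AC3-/- libraries. The summed leukocyte markers, for example, were 14116 and 17683 normalised reads in the AC3-/- libraries (a, then b) and 16553 and 5197 in the WT libraries. The ratio of AC3-/- to WT was 0.333 for the summed means of the olfactory sensory markers, 1.46 for leukocytes, 1.25 for red cells, 1.04 for neurons, 1.02 for multiciliated cells, 0.803 for striated muscle and 0.779 for mesenchyme. Such a sum is set mainly by its most abundant markers, so a ratio near 1 does not mean that every marker was unchanged. Only 1 of the 8 olfactory sensory markers, miR-141-3p, had library values. They were 18849 and 22274 normalised reads in AC3-/- and 17615 and 41585 in WT, with overlap. The spread of the summed olfactory sensory markers between libraries is therefore not known. The 3 multiciliated markers with library values summed to 5446 and 8137 in AC3-/- and 11619 and 1174 in WT. The 2 neuron markers with library values went opposite ways. By limma, the log2 difference (AC3-/- minus WT) was 2.81 for miR-124-3p (adjusted p = 0.339) and -0.69 for miR-138-5p (adjusted p = 0.933). The part of these cell types in the member values was not tested. In a whole tissue fewer cells of a type and less RNA per cell cannot be told apart.

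The members together were a small part of the profile, and under the authors' scaling their summed level was similar in the genotypes. Their summed level was 3413 and 2754 normalised reads in AC3-/- (library a, then b, as throughout), and 3009 and 2525 in WT, from 3918, 3026, 2832 and 2159 reads. The libraries of the genotypes overlapped, and the mean was 3084 ± 466 (SD, n = 2) in AC3-/- against 2767 ± 343 (SD, n = 2) in WT, a ratio of 1.11. As a share of all rows the members were less alike, with 0.0353% of the AC3-/- total and 0.0225% of the WT total, which was 1.41-fold the AC3-/- total. The 2 most abundant members, miR-127-3p and miR-434-5p, held 78.0% to 80.8% of the summed level in every library.

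miR-127-3p was the most abundant member. miR-127 is the best known of the group as a regulator of Rtl1 in mice, and in human cancer cells it has been reported to target BCL6. miR-127-3p had 1931 and 1515 normalised reads in AC3-/- and 1684 and 1386 in WT, and the genotypes overlapped. Its log2 difference, AC3-/- minus WT on log2(normalised reads + 1), was 0.16 ± 0.31 (standard error), with a 95% interval from -0.62 to 0.94 and a limma adjusted p of 0.933 over 445 miRNAs. Ranked by mean level, miR-127-3p stood at 137 of the 1167 rows. The other arm, miR-127-5p, had 173 and 133 normalised reads in AC3-/- and 128 and 90.0 in WT. Both AC3-/- libraries lay above both WT libraries for this arm, by a narrow gap between 133 and 128. Its log2 difference was 0.50 ± 0.37 (standard error), with a 95% interval from -0.43 to 1.43 and a limma adjusted p of 0.933.

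miR-434 was the second most abundant, with the 5p arm ahead. miR-434-5p had 754 and 634 normalised reads in AC3-/- and 746 and 615 in WT. These were nearly the same pair of values in each genotype, and the log2 difference was 0.03, with a 95% interval from -0.79 to 0.85 and a limma adjusted p of 0.976. miR-434-3p had 198 and 169 normalised reads in AC3-/- and 163 and 153 in WT. The genotypes did not overlap for the 3p arm, but the mean was only 1.16-fold higher in AC3-/- and the limma adjusted p was 0.933.

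The arms of miR-136 were at nearly equal levels. miR-136-3p had 155 and 114 normalised reads in AC3-/- and 137 and 115 in WT, with overlap and a log2 difference of 0.08 (limma adjusted p = 0.963). miR-136-5p had 130 and 135 normalised reads in AC3-/- and 85.0 and 102 in WT. Here both AC3-/- libraries lay above both WT libraries, the mean was 1.42-fold higher, and the log2 difference was 0.50 ± 0.33 (standard error; limma adjusted p = 0.933). Of the 10 members it had the smallest p in the authors' deposited table, 0.175, at rank 136 of 1167.

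miR-431-5p and miR-433-3p were scarce. miR-431 is known in mouse muscle progenitors as a regulator of Pax7, and human miR-433 for its site in FGF20. miR-431-5p had 18.3 and 14.6 normalised reads in AC3-/- and 6.38 and 10.5 in WT, from 21, 16, 6 and 9 reads. The genotypes did not overlap, with the mean 1.94-fold higher in AC3-/-; the log2 difference of 0.91 ± 0.54 (standard error) was the largest among the 8 tested members and had a limma adjusted p of 0.933 and a 95% interval from -0.44 to 2.26. miR-433-3p had 11.3 and 10.01 normalised reads in AC3-/- and 7.44 and 2.34 in WT, from 13, 11, 7 and 2 reads. It too did not overlap, but its mean was under 10 and it was not tested with limma; the authors' deposited table gives it p = 0.243, adjusted to 0.940.

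miR-337-5p was the 1 member with a lower mean in AC3-/-. It had 41.8 and 27.3 normalised reads in AC3-/- and 53.1 and 51.5 in WT, from 48, 30, 50 and 44 reads. Both AC3-/- libraries lay below both WT libraries, at 0.661 of the WT mean, and the log2 difference was -0.61 ± 0.39 (standard error), with a 95% interval from -1.60 to 0.37 and a limma adjusted p of 0.933. miR-337-3p was at the edge of detection, with 1 and 4 reads in AC3-/- and 0 in both WT libraries. Since 0 reads allow up to 3, taken over the WT group, its AC3-/- mean as observed was 1.29-fold that limit. The counting error of the 5 AC3-/- reads is left out of this ratio, so it sets no minimum fold. For this arm the authors' deposited table gives p = 0.177, adjusted to 0.940.

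**Figure D2:**
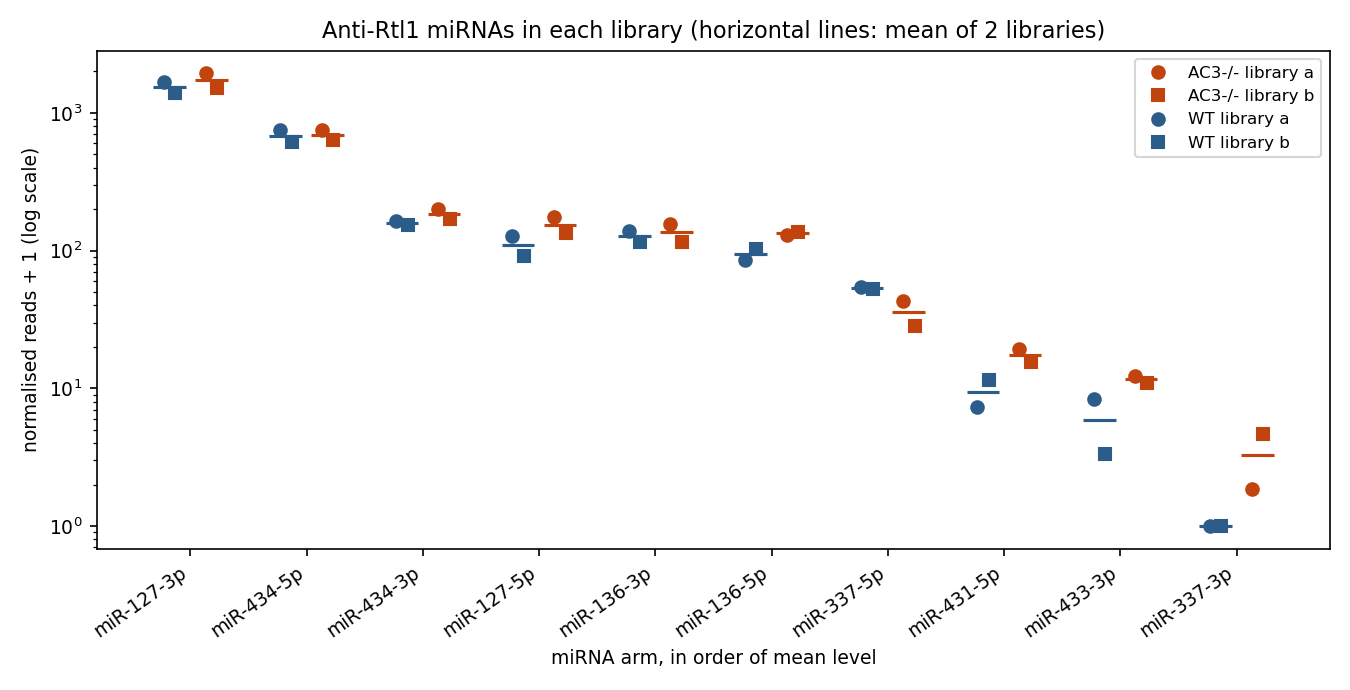
Normalised reads + 1 (log scale) of the 10 members in each of the 4 libraries, circles for library a and squares for library b, with a line at the mean of 2 libraries. The levels fall from a mean of 1629 normalised reads for miR-127-3p to 1.13 for miR-337-3p, and for each member the distance between genotypes is small against the range across members.

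Set in order of their mean over 4 libraries, the levels were 1629 normalised reads for miR-127-3p, 687 for miR-434-5p, 171 for miR-434-3p, 131 for miR-127-5p, 130.1 for miR-136-3p and 113 for miR-136-5p. They went on with 43.4 for miR-337-5p, 12.4 for miR-431-5p, 7.78 for miR-433-3p and 1.13 for miR-337-3p. miR-127-3p stood above miR-434-5p, and miR-434-5p above miR-434-3p, with no overlap of their ranges. The ranges of neighbours overlapped from miR-434-3p down to miR-136-5p. Compared within libraries, miR-434-3p stood above miR-127-5p in all 4. miR-127-5p stood above miR-136-3p in 2 libraries, and miR-136-3p above miR-136-5p in 3, so the order of miR-127-5p and the miR-136 arms varied between libraries. Ranges overlapped again from miR-431-5p to miR-337-3p. There miR-431-5p stood above miR-433-3p in 3 libraries, and miR-433-3p above miR-337-3p in 4. Ligation and PCR favour some sequences, so this is an order of reads and not of molecules.

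No member passed a test between genotypes. By the authors' deposited table, an adjusted p under 0.05 was reached by 0 of 10 members and by 0.0857% of all rows, and an unadjusted one by 0 of 10 and 3.51%. In limma 0 of 8 tested members passed the adjusted threshold, against 0% of 445 miRNAs, and 0 of 8 had an unadjusted p under 0.05, against 3.6%. The deposited log2 fold change was above 0 for 9 of 10 members, against 49.5% of all rows, with a median of 0.30 in the authors' deposited table against -0.01 for all rows. By limma 7 of 8 lay above 0, against 49.4%, with a median of 0.19 against -0.01. miR-434-5p fell below 0 (-0.05) when the libraries were set to a common median. Its sign and those of miR-127-3p and miR-136-3p also changed when 1 library was left out.

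Counted by library, 4 of the 8 tested members had both AC3-/- libraries above both WT libraries: miR-127-5p, miR-136-5p, miR-431-5p and miR-434-3p. This was so for 16.6% of the 445 miRNAs tested. miR-337-5p alone of the 8 had both below, against 17.1%. The members are not independent of each other, since arms of 1 precursor are made together, and their choice followed earlier results of these data. Dividing by the total of each genotype in place of the authors' size factors moves the log2 ratio of means of every miRNA by 0.50 towards AC3-/-, before 1 is added. With 1 added the shift is not the same for all, and miR-431-5p went from 0.91 to 1.45. So scaled, with 1 added, the median of the 8 members was 0.69, and that of all 445 was 0.46.

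**Figure D3:**
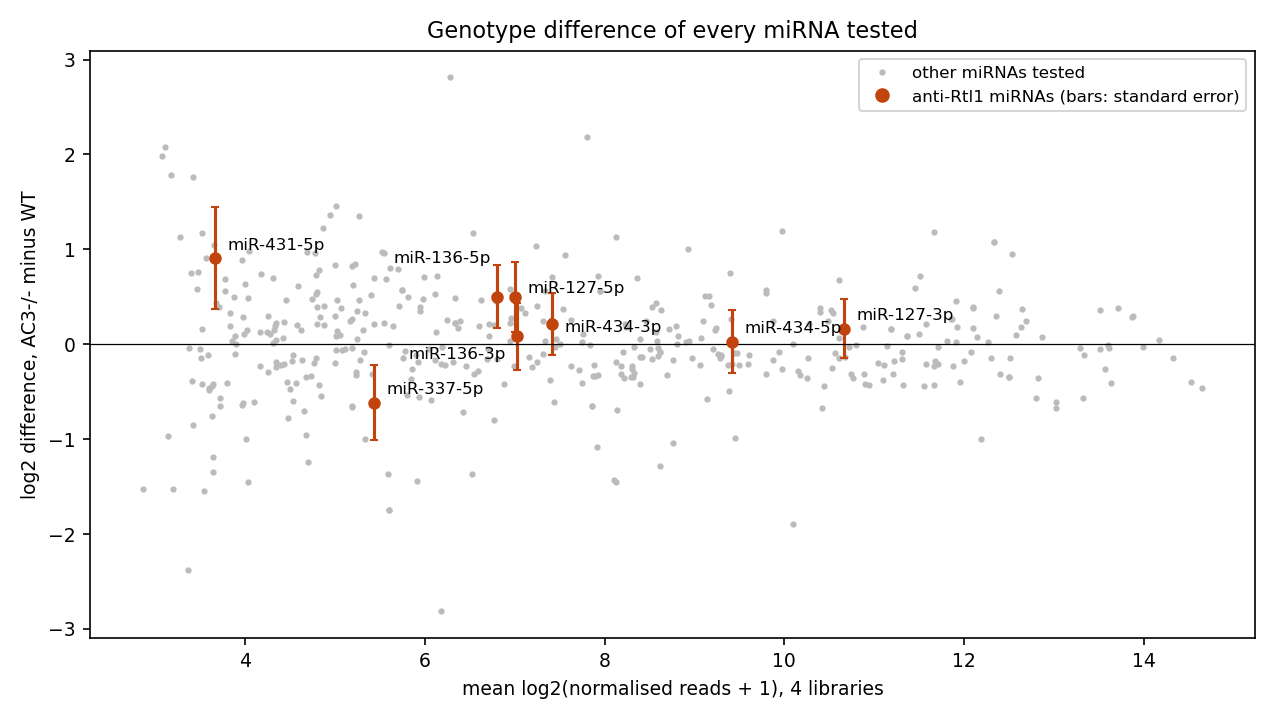
Log2 difference between genotypes, AC3-/- minus WT (vertical), against mean log2(normalised reads + 1) for 445 miRNAs; members are in red with their standard errors. The 8 tested members lie between -0.61 and 0.91. All 445, which include these 8, run from -2.81 to 2.81.

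Of the tested members, 0 of 8 lay 2-fold or more apart between the WT libraries, where 26.1% of all miRNAs tested did. Between the AC3-/- libraries 0 of 8 did, against 5.84%, and with 8 members 0 is near that share. miR-433-3p, too low to be tested, was at 7.44 and 2.34 in the WT libraries, a log2 ratio of -1.67 before 1 is added. With 1 added, the log2 ratio of WT library b to a ran from -0.50 to 0.64 over the tested members and from -4.82 to 4.65 over all 445. A range widens with the number of miRNAs. The SD of this ratio was 0.36 over the tested members and 1.11 over all 445. Without WT library b the median log2 difference of the members was 0.10, and it was 0.04 without AC3-/- library a.

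Arm balance, the share of a precursor's reads that came from the 3p arm, differed widely between the 6 hairpins. For miR-127 the 3p arm held 91.8% of reads (95% exact Clopper-Pearson interval 90.6% to 92.8%) and 91.9% (90.6% to 93.1%) in AC3-/-. It held 93.0% (91.6% to 94.1%) and 93.9% (92.4% to 95.2%) in WT. Both AC3-/- shares were lower than both WT shares, but their intervals overlapped those of WT, and the intervals cover counting error only. For miR-434 the 3p arm held 20.8% (18.4% to 23.3%) and 21.1% (18.4% to 23.9%) in AC3-/-, and 17.9% (15.4% to 20.6%) and 19.9% (16.9% to 23.2%) in WT, so that here both AC3-/- shares were the higher. Genotypes did not overlap in arm balance for 35.7% of 171 precursor names with both arms measured. For miR-136 the 3p shares were 54.4% and 45.8% in AC3-/- and 61.7% and 53.0% in WT, with overlap between the genotypes. Of the 171 precursor names, 22.2% had arms within 2-fold of each other, as those of miR-136 were.

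The scarce hairpins leaned strongly to 1 arm. miR-431 gave 52 reads of its 5p arm over the 4 libraries and 6 of its 3p arm, and miR-433 gave 33 reads of its 3p arm and 1 of its 5p arm. miR-337 gave 172 reads of its 5p arm and 5 of its 3p arm; all 5 were in AC3-/-, 1 of 49 reads (2.04%, 0.0517% to 10.9%) in library a and 4 of 34 (11.8%, 3.30% to 27.5%) in library b. In WT the 3p arm of miR-337 had 0 of 50 and 0 of 44 reads, with upper limits of 7.11% and 8.04%.

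Arm balance was compared between genotypes by limma on log2((3p + 1)/(5p + 1)) over the 171 precursor names, of which 0% passed the adjusted threshold and 7.02% had an unadjusted p under 0.05. Of the 6 precursors 5 could be tested, and 1 of them, miR-337, had an unadjusted p under 0.05, at rank 8 of 171. Its log2 arm ratio was -3.56 in AC3-/- and -5.74 in WT, a difference of 2.17 ± 0.80 (standard error), with a 95% interval from 0.30 to 4.05 and a limma adjusted p of 0.587. This difference rests on the 5 reads of the 3p arm and fell to 1.22 without AC3-/- library b, which holds 4 of them. The pseudocount also sets its size, and the difference was 2.87 with 0.5 added. Reads of this 3p arm may also have been counted under the opposite-strand name miR-3544-5p, as described below. For miR-127 the difference was -0.34 (95% interval -1.16 to 0.49), for miR-136 -0.42 (-1.59 to 0.75), for miR-434 0.18 (-0.74 to 1.10) and for miR-431 0.12 (-2.14 to 2.37). The limma adjusted p-values of these 4 were 0.820, 0.825, 0.911 and 0.984. In all 5 tested precursors the less abundant arm had the larger log2 difference towards AC3-/-, but in miR-337 and miR-431 that arm had only 5 and 6 reads. The same held for 53.2% of the 171 precursor names.

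**Figure D4:**
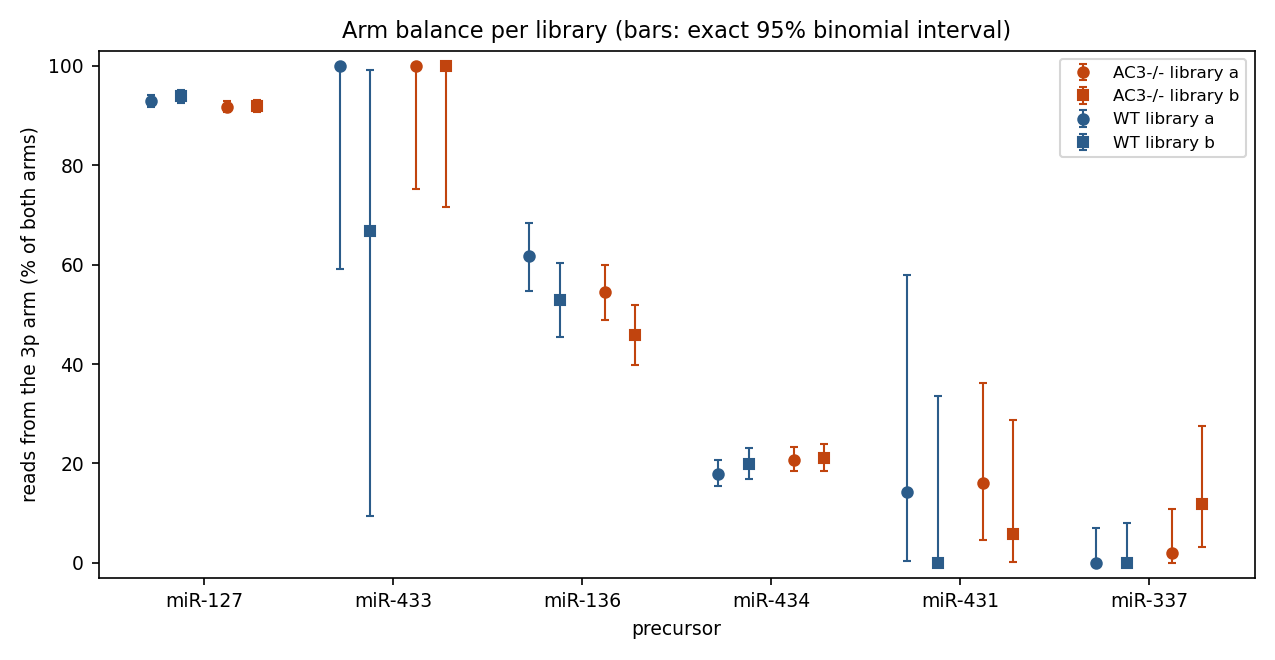
Reads from the 3p arm as a percentage of both arms (vertical) for the 6 precursors in each library, with exact 95% binomial intervals. miR-127 and miR-433 lie near the top, apart from miR-433 at 66.7% on 3 reads in WT library b, miR-136 near the middle, and miR-434, miR-431 and miR-337 near the bottom; the intervals of miR-433 and miR-431 are wide because they rest on 3 to 25 reads per library.

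A second set of miRNA names lies on the Rtl1 strand of the same bases. miR-3071 overlaps miR-136, and miR-3544 overlaps miR-337. They are shown with the overlapped, mutually complementary bases in capitals, since the reads of these pairs may not have been kept apart.
miR-136-5p: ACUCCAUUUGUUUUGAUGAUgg
miR-3071-3p: AUCAUCAAAACAAAUGGAGUcc
miR-136-3p: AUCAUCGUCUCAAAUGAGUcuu
miR-3071-5p: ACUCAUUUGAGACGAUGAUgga
miR-337-5p: CGGCGUCAUGCAGGAGUugauu
miR-3544-3p: ACUCCUGCAUGACGCCGuuccc
miR-337-3p: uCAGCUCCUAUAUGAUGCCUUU
miR-3544-5p: agAAAGGCAUCAUAUAGGAGCUG
miR-136-3p had 178 and 125 reads in AC3-/- and 129 and 98 in WT, and its opposite-strand partner miR-3071-5p had 167, 116, 120 and 98. miR-136-5p had 149, 148, 80 and 87 reads, and miR-3071-3p had 175, 167, 109 and 100. The first pair was within 10% in every library. The second was further apart, and miR-136-5p had 84.2% of the total of its partner. miR-337-3p and miR-3544-5p also went together, with 1, 4, 0 and 0 reads against 1, 3, 0 and 0. miR-337-5p did not: it had 48, 30, 50 and 44 reads against 2, 2, 0 and 0 for miR-3544-3p, whose ends lie 5 bases away, whereas in the other 3 pairs the ends lie within 3 bases.

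Over the whole table, both miR-136 pairs included, 20 pairs of mature miRNAs lay on opposite strands with ends within 3 bases and at least 10 reads. Of these, 3 had equal reads in all 4 libraries, 8 were within 10% in all 4, and 11 had totals within 2-fold of each other; the remaining pairs were further apart. In the 3 pairs whose ends lay more than 3 bases apart, miR-337-5p and miR-3544-3p among them, the lower total was at most 2.3% of the higher. How reads were assigned to strands is not given in the sources used here. It is therefore not known how far reads of miR-136 and miR-3071, or of miR-337-3p and miR-3544-5p, were kept apart. The miR-136 and miR-337-3p values may hold reads that were counted under both names. For this reason the genotype and arm values of miR-3071 are not taken as a separate observation. Its 3p arm, facing miR-136-5p, had a log2 difference of 0.38 (limma adjusted p = 0.933) and its 5p arm one of 0.04 (limma adjusted p = 0.976).

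**Figure D5:**
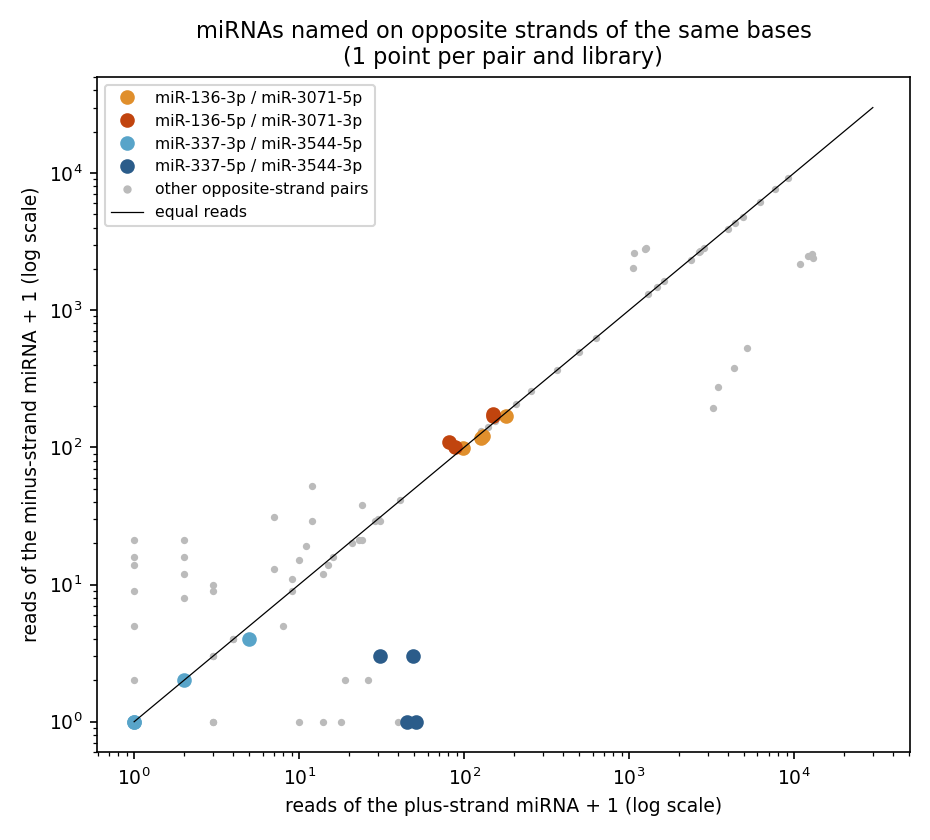
Reads + 1 of the minus-strand miRNA against reads + 1 of its plus-strand partner (both log scale), 1 point for each pair and library. The miR-136 and miR-3071 pairs and the miR-337-3p and miR-3544-5p pair lie on or near the line of equal reads, while miR-337-5p lies far to the right of it.

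No other miRNA listed for the region had an adjusted p under 0.05 in the authors' deposited table or by limma. Besides miR-3071 and miR-3544, the names listed at Rtl1 and present in the table were miR-431-3p and miR-433-5p, with 6 reads and 1 read in all. Over the 6 of this list, the authors' deposited table gives 5 a log2 fold change above 0 and none a p under 0.05 before adjustment. These 5 are miR-431-3p and the arms of miR-3071 and miR-3544, which face member arms on the opposite strand. Both miR-3071 arms and miR-3544-5p may share reads with members and are not separate observations, and miR-3544-3p had 4 reads in all. On the Meg3 side of Rtl1, with miR-370 added, 9 miRNAs were present, 5 of them above 0, with 1 unadjusted p under 0.05; on the Mirg side 58 were present, 36 of them above 0, with 3. Over all rows 49.5% were above 0 and 3.51% had such a p. By limma the median log2 difference of the 31 tested miRNAs of the Mirg side was 0.20, next to 0.19 for the anti-Rtl1 members; both used the same 4 libraries. Of these 31, both AC3-/- libraries were above both WT libraries for 13 and below for 3, against 16.6% and 17.1% of all miRNAs tested, and 1 had an unadjusted p under 0.05.

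Of the 5 miRNAs whose course over the 4 libraries was most like that of miR-127-3p, 1 was named at Rtl1. That 1 was miR-3071-5p, which faces the member miR-136-3p on the opposite strand and may share its reads. Likeness was measured as the Euclidean distance between log2(normalised reads + 1) values centred on their own mean, over 4 libraries and 243 non-members with a mean of at least 100. The nearest 5 were miR-199b-5p at 0.08, miR-210-3p at 0.14, miR-93-5p at 0.15, miR-3071-5p at 0.17 and miR-25-3p at 0.18. miR-199b-5p, for example, had 4682 and 3620 normalised reads in AC3-/- and 4157 and 3187 in WT, higher in library a than in library b of each genotype, as miR-127-3p was. Of the other members with a mean of at least 100, miR-136-3p lay at 0.10, miR-434-5p at 0.15 and miR-434-3p at 0.17. The arm of the same hairpin, miR-127-5p, lay at 0.37 and miR-136-5p at 0.58.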

How the data were processed

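Small RNA of 4 samples, 2 AC3-/- and 2 WT by their titles, was compared. Per the labels' protocols, adaptors were ligated to both ends of small RNAs, which were amplified by PCR and selected by length on a gel; no molecular identifiers are described. Bowtie, DESeq 1.8.3 and GRCm38 appear in the submitters' processing notes, without a stated role; for the counter, the miRBase release and the strand setting, the sources used here give nothing. The authors deposited 1 table whose 2 abundance columns hold a signal: per the file headers, the mean normalised read count for AC3-/- and for WT. It also holds the authors' log2 fold change, p-value and adjusted p-value, which were tallied as deposited.

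A mean of 2 libraries moves in 2 step sizes, 1 for each library, set by what a single read adds there. Solving for whole reads gave 1 solution in 1122 of 1167 AC3-/- rows (96.1%) and 1132 WT rows (97.0%), among them every member. The size factors (library a, then b) came to 1.148 and 1.099 in AC3-/- and to 0.9411 and 0.8551 in WT. The other rows, all of abundant miRNAs, have no library values. The steps were tested on simulated data.

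limma 3.58.1 (R 4.3.3) with an intensity trend was fitted to log2(normalised reads + 1) of the 445 miRNAs that have library values and average 10 or more, which 8 of 10 members reach, with Benjamini-Hochberg adjustment. Adding 1 understates the change of low miRNAs. Arm ratios were fitted alike over 171 precursor names with at least 10 normalised reads in both arms together and 1 in each. All 10 members were named; other miRNAs were named by the fixed lists and the distance to miR-127-3p. The members and lists were chosen with earlier results of these data known. Alternatives covered the pseudocount, filters, scaling, variance trend and each library left out.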

Additional observations from a re-analysis of the deposited data

How the results depend on the processing

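No member passed an adjusted p of 0.05 in any setting tried, and the median log2 difference of the members stayed above 0 in all of them. Left out in turn, the libraries gave medians from 0.04 to 0.33, and 0 members called. The smallest limma adjusted p of a member ranged from 0.206, without WT library a, to 0.999, without AC3-/- library a. Scaling to the total of each genotype, an alternative chosen after seeing the data, gave a median of 0.69. Under the authors' scaling the median was 0.083 with the more abundant arm of each precursor alone and 0.36 with a mean of at least 1. Over all miRNAs limma called 61 without WT library a and 1 without WT library b, none of them members; a lone library is then assumed to vary like the other genotype's pair.

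The differences near 0 changed sign. Without AC3-/- library a they were -0.012 for miR-127-3p, -0.14 for miR-136-3p and -0.10 for miR-434-5p. Without WT library b they were -0.045 for miR-136-3p and -0.11 for miR-434-5p, and with a common median -0.051 for miR-434-5p. The arm balance difference of miR-431, on 58 reads, was -0.34 without AC3-/- library a and -0.73 without WT library b. The highest values with 1 library left out were 0.34 for miR-127-3p, 0.30 for miR-136-3p, 0.17 for miR-434-5p and 0.96 for the arm balance of miR-431. With libraries left out in turn, the precursors called for arm balance numbered 0 to 1, the 1 being miR-186 without WT library b. The cause of these changes was not tested. The remaining 72 settings for single members and 31 for single precursors kept direction and call, though not size. Without WT library b the difference of miR-127-5p was 0.25, and without WT library a it was 0.59 for miR-431-5p and the arm balance of miR-136 was -0.16. Without AC3-/- library b miR-337-5p was at -0.32 and the arm balance of miR-136 at -0.17, and without AC3-/- library a miR-434-3p was at 0.10 and miR-127-5p at 0.31. No paired analysis was possible because the recovered libraries carry no replicate numbers. Depth limits miR-337-3p, miR-431-5p and miR-433-3p most, with 5, 52 and 33 reads.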
